A study of Mus musculus with 4 samples.

Results

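The miRNAs of pantothenate kinase genes described here are mmu-miR-103, mmu-miR-107 and mmu-miR-107*, each with 1 probe on the array and written below without the species prefix. These 3 probes were found by name among 1096 mouse miRNA probes. The rule uses names and no intensity, though it was set with earlier results of these data known. Small intestines of Tlr3-/- and of Tlr3+/+ mice gave the RNA. One group of each genotype was taken 6 hr after 10 Gy of total body gamma-irradiation and another was non-treated and taken at 0 hr. The arrays are listed throughout as irradiated Tlr3-/-, irradiated Tlr3+/+, non-treated Tlr3-/- and non-treated Tlr3+/+. Each group was 1 array of RNA pooled from 3 mice, so no spread between mice or pools could be measured, and the labels do not give the strain, age or kind of Tlr3 allele. With no non-treated group at 6 hr, the effects of the dose and of elapsed time cannot be told apart.

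miR-103 and miR-107 are mature miRNAs cut from introns of the pantothenate kinase genes, which encode the enzymes that begin coenzyme A synthesis. Both are widely expressed and are known for work on insulin sensitivity in liver and fat and for targeting Dicer, the enzyme that cuts miRNA precursors. miR-107 has been linked to the tumour suppressor p53 in human cancer cells. A radiation dose to the intestine is a known trigger of p53, and TLR3 is a receptor for double-stranded RNA.

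The sequences are shown because a single base separates the main members and because the bases that pair with targets are shared. They are RefSeq entries of GRCm38.p6, written 5′ to 3′, with the seed (bases 2 to 8) in capitals.
miR-103 (miR-103-3p): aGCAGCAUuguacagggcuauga
miR-107 (miR-107-3p): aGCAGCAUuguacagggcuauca
miR-107* (miR-107-5p): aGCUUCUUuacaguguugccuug
miR-103-1* (miR-103-1-5p): gGCUUCUUuacagugcugccuug
miR-103-2* (miR-103-2-5p): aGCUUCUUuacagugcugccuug
Counted from 1 at the 5′ end of miR-103, the only difference of miR-107 was G22C, so 22 of 23 bases were identical and the seeds were the same. Of 1679 mature mouse miRNA names in the RefSeq table, only miR-103-3p and miR-107-3p carry this seed. The star strands, which come from the other arm of the hairpin, share a different seed, and miR-107* differs from miR-103-2* by C16U.

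miR-103 has identical mature copies in 2 genes. Mir103-1 lies within the span of Pank3, its mature sequence at chr11:35782447-35782469 on the plus strand. Mir103-2 lies within Pank2, at chr2:131288103-131288125 on the plus strand. Mir107 lies within Pank1, with mature miR-107 at chr19:34820700-34820722 and miR-107* at chr19:34820737-34820759, both on the minus strand. The miR-103 probe cannot tell its 2 genes apart. Cross-hybridisation between the miR-103 and miR-107 probes was not tested, and no probe sequence was used here, so values that both probes share are uncertain.

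The detection threshold of each array was 2 SD above the mean raw intensity of its blank spots. Of the mouse probes, 711, 778, 721 and 779 were detected on the 4 arrays in the order given above, 573 of them on all 4. All 8 listed epithelial miRNAs (such as miR-192, miR-194 and miR-215) were detected on every array, with summed background-subtracted intensities of 19110, 16037, 17513 and 16450. No label states which arrays were run together. The deposited array names share 1 code between both non-treated arrays and give each irradiated array a code of its own. Whatever the code stands for, a slide or otherwise, it cannot be told apart from irradiation, and it also differs between the genotypes at 6 hr. The array measures no mRNA, so the loss of Tlr3 could not be checked.

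miR-103 was among the brighter miRNAs. Its raw intensity was 291 in irradiated Tlr3-/- and 272 in irradiated Tlr3+/+ intestine, against 308 in non-treated Tlr3-/- and 286 in non-treated Tlr3+/+ intestine. That was 9.98 to 11.6 times the detection threshold, and the probe ranked 49, 49, 42 and 43 by brightness among the mouse probes. miR-103 was therefore clearly detected on every array, and its raw intensity was lower on the irradiated array of each genotype.

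miR-107 read 260 in irradiated Tlr3-/- and 224 in irradiated Tlr3+/+ intestine, against 272 in non-treated Tlr3-/- and 257 in non-treated Tlr3+/+ intestine. This was 8.61 to 10.3 times the threshold, at brightness ranks 54, 58, 48 and 47. The lowest value was again that of irradiated Tlr3+/+ intestine. After background correction and quantile normalization, the log2 intensity of miR-103 was 8.20 in both irradiated groups, equal there because the probe held the same rank, against 8.41 in non-treated Tlr3-/- and 8.38 in non-treated Tlr3+/+ intestine. That of miR-107 was 8.07 in irradiated Tlr3-/- and 7.96 in irradiated Tlr3+/+ intestine, against 8.23 in non-treated Tlr3-/- and 8.24 in non-treated Tlr3+/+ intestine. For both miRNAs the irradiated arrays stood lower, the non-treated arrays were neighbours in the order of levels, and the values within each of these pairs differed by less than the technical SD of a ratio given next.

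The only repeated spots that carry signal for a spread are 8 spots of each of 2 spike controls. Their pooled SD within arrays was 0.105 on the log2 scale, which makes 0.148 for the ratio of 2 arrays. The spikes are brighter than the members, and this SD holds neither the spread between arrays nor that between mice.

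miR-107* was at the edge of detection. It read 27.7 in irradiated Tlr3-/- and 27.9 in irradiated Tlr3+/+ intestine, against 24.6 in non-treated Tlr3-/- and 25.8 in non-treated Tlr3+/+ intestine. The thresholds of these arrays were 29.2, 26.1, 26.5 and 25.8, and the highest means of the negative controls were 29.7, 27.5, 26.7 and 26.2. It thus passed the threshold on both Tlr3+/+ arrays, at 0 hr by a ratio of 1.001, and was not well above background on either Tlr3-/- array. Of the 1096 mouse probes, 38 (3.47%) had this pattern, and only at 6 hr in Tlr3+/+ intestine did miR-107* exceed all negative controls.

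The star strands of the miR-103 genes were also dim. miR-103-1* read 31.8 and 30.6 in irradiated Tlr3-/- and Tlr3+/+ intestine, against 30.5 and 28.7 in non-treated Tlr3-/- and Tlr3+/+ intestine. miR-103-2* read 30.6 and 27.3, against 28.8 and 27.3 in the same order. Both passed the threshold on all 4 arrays, by ratios of at most 1.17, and miR-103-2* lay below the highest negative control mean in irradiated Tlr3+/+ intestine. The probes of the mature strands were bright and those of the star strands near background, but the miR-103 probe reads both of its hairpins together. Probes differ in how strongly they bind, so their levels were not set against each other.

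**Figure D1:**
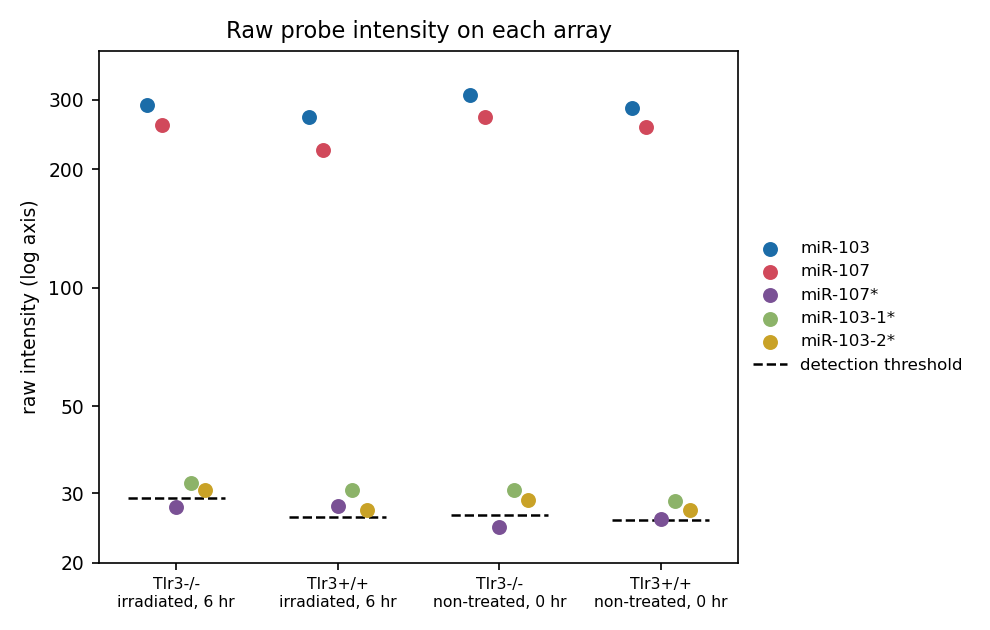
Raw intensity (log axis) of the miR-103, miR-107 and star strand probes on each of the 4 arrays, 1 point per probe and array, with the detection threshold of each array as a dashed line. miR-103 (272 to 308) and miR-107 (224 to 272) lie far above the thresholds, whereas miR-107* (24.6 to 27.9) lies next to them.

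The first question was how the miRNAs moved with irradiation in intestine without TLR3. In Tlr3-/- mice the log2 ratio of 6 hr over 0 hr was -0.21 for miR-103, a level 13.6% lower, and -0.16 for miR-107, a level 10.6% lower. These were 1.43 and 1.10 times the technical SD of a ratio. None of the 3 members reached 2-fold, a size that 0.48% of 625 compared miRNAs reached upward and 0.16% downward. The ratio of miR-107*, below the threshold on both arrays, was not compared.

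Most compared miRNAs hardly differed, with a median log2 ratio of -0.00, but most are dim and the offset shrinks their ratios. Among 102 miRNAs above 3 times the threshold on both arrays, here called bright, the median was -0.07, and 20 had a lower ratio than miR-103 and 30 a lower one than miR-107. The miRNAs of the pair therefore lay 0.14 and 0.09 below the bright median in Tlr3-/- intestine. Scaled to the spike controls, the ratios turned to 0.05 for miR-103 and 0.06 for miR-107, the bright median to 0.18 and the median of all compared miRNAs to 0.15. The spike controls themselves averaged raw intensities of 3906 and 3238 on the irradiated Tlr3-/- array, against 4280 and 3577 on the non-treated one. The direction of the change in Tlr3-/- intestine thus depended on the scaling. Median and spike scaling shift all miRNAs of an array alike, so their distances from the bright median are identical by construction. These were -0.13 for miR-103 and -0.12 for miR-107, and under cyclic loess -0.14 and -0.12.

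The same comparison was made in intestine with TLR3. In Tlr3+/+ mice the log2 ratio was -0.18 for miR-103, a level 12.0% lower, and -0.29 for miR-107, a level 17.9% lower. The ratios were 1.25 and 1.93 times the technical SD of a ratio. Both stayed below 0 in all 6 other processings, at -0.32 to -0.11 for miR-103 and at -0.45 to -0.21 for miR-107. Of 680 compared miRNAs, 1.76% were higher by 2-fold or more and 0% were lower by as much, and none of the 3 members was among them.

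Bright miRNAs in general were lower in irradiated Tlr3+/+ intestine. Their median log2 ratio was -0.20 over 104 miRNAs, with quartiles of -0.31 and 0.00, and 58 of the 104 had a lower ratio than miR-103 and 29 a lower one than miR-107. miR-103 thus stood near the middle and miR-107 near the lower quartile. Against that median miR-103 was 0.018 higher and miR-107 differed by -0.082, both within the technical SD of a ratio. miR-107* had a log2 ratio of 0.04 between arrays on which it barely passed the threshold. In the authors' normalized values its ratio was 1.13, from background-subtracted intensities of 3.28 and 1.27, both close to the blank spots.

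Markers of several cell types were set beside this result, and not all moved with it. Of all compared miRNAs, 317 of 625 were below 0 in Tlr3-/- and 389 of 680 in Tlr3+/+ intestine. Of the bright ones it was 56 of 102 and 77 of 104, so the epithelial count in Tlr3+/+ intestine was near the bright share. Of the 8 epithelial miRNAs, 6 were below 0 and none above in Tlr3+/+ intestine, with a median of -0.33, whereas in Tlr3-/- intestine 3 were below and 3 above 0, with a median of 0.00. All 6 listed leukocyte miRNAs (miR-142-3p, miR-142-5p, miR-146a, miR-150, miR-155 and miR-223) were below 0 in both genotypes, with a median of -0.16 in Tlr3-/- and -0.23 in Tlr3+/+ intestine. Their summed background-subtracted intensities were 262 and 225 in irradiated Tlr3-/- and Tlr3+/+ intestine, against 378 and 288 in non-treated Tlr3-/- and Tlr3+/+ intestine. The smooth muscle miRNAs miR-143 and miR-145 were below 0 as well, with medians of -0.54 and -0.57, and summed to 2800 and 2560, against 3144 and 2574. Ratios of such very bright markers depended on the processing. Under median scaling miR-145 in Tlr3+/+ intestine turned from -0.33 to 0.06, and the epithelial miR-192 there went from -0.57 to -0.03. miR-143 stayed below 0 in all 6 other processings. The endothelial miR-126-3p and miR-126-5p had a median of -0.04 in Tlr3-/- and -0.17 in Tlr3+/+ intestine. In Tlr3-/- intestine they had opposite signs, at -0.18 for miR-126-3p and 0.10 for miR-126-5p. The striated muscle miRNAs compared had a median of 0.08 in Tlr3-/- and -0.03 in Tlr3+/+ intestine. The red cell miRNA miR-451 was at -0.94 in Tlr3-/- and 1.11 in Tlr3+/+ intestine. The part of all these cell types in the values of miR-103 and miR-107 was not tested, and in whole intestine fewer cells of a type and less RNA per cell cannot be told apart.

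A fit over both genotypes gave the only test that the design allows. With limma, the irradiation term was -0.20 ± 0.019 (SE) for miR-103, with an adjusted p of 0.222, and -0.22 ± 0.044 (SE) for miR-107, with an adjusted p of 0.312. Under spike scaling the same limma terms were -0.030 and -0.077, each with an adjusted p of 0.965, and under median scaling -0.10 and -0.15, with adjusted p of 0.311 and 0.377. Neither passed 0.05, and neither did any of 797 miRNAs tested with limma (0%), of which 100 (12.5%) had an unadjusted p under 0.05. The limma unadjusted p was 0.00549 for miR-103 and 0.0262 for miR-107, so both were among the 100. For miR-107* the limma change was 0.02, with an adjusted p of 0.668. The fit has 1 residual degree of freedom, and its spread is the disagreement between the genotypes. miR-103 held equal ranks on the irradiated arrays, which quantile normalization turns into equal values.

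**Figure D2:**
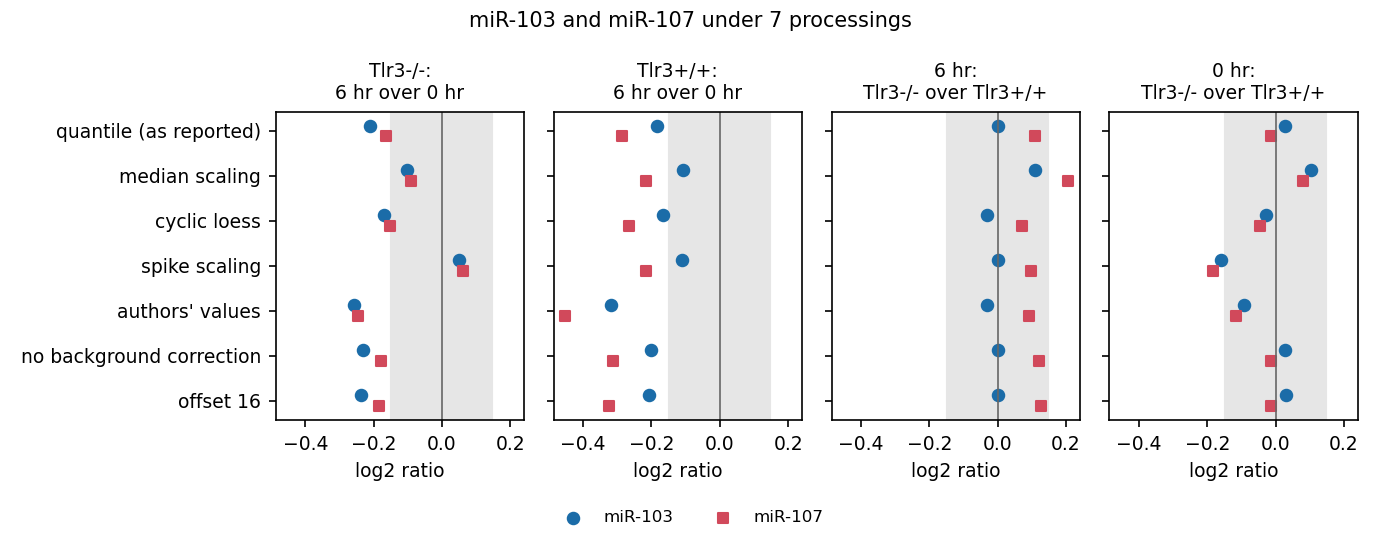
Log2 ratios of miR-103 (circles) and miR-107 (squares) in the 4 comparisons under 7 processings, 1 value each without replicates, where the grey band is 1 technical SD of a ratio (0.148) on either side of 0. The irradiation ratios lie below 0 except under spike scaling in Tlr3-/- intestine (0.05 and 0.06). The genotype ratio of miR-107 at 6 hr lies above 0 throughout (0.07 to 0.21). The other genotype ratios fall on both sides of 0, and under spike scaling those at 0 hr lie below the band (-0.16 and -0.18).

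The genotypes were compared at each time. At 6 hr the log2 ratio of Tlr3-/- over Tlr3+/+ was 0.00 for miR-103 and 0.11 for miR-107. The ratio of miR-107 was 0.746 times the technical SD of a ratio. Over 104 bright miRNAs the median at 6 hr was 0.07, with quartiles of -0.12 and 0.17. Of these, 63 had a lower ratio than miR-107 and 37 a lower one than miR-103. Against that median miR-107 was 0.041 higher. At 0 hr the ratios were 0.03 for miR-103 and -0.01 for miR-107. At 6 hr 0% of 645 compared miRNAs were 2-fold higher and 0% 2-fold lower, and at 0 hr 0.305% of 656 were 2-fold higher and 0% 2-fold lower, with no member among them.

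Across 6 other processings, the ratio of miR-107 at 6 hr stayed above 0, from 0.07 to 0.21, whereas that of miR-103 ran from -0.03 to 0.11. At 0 hr miR-103 ran from -0.16 to 0.10 and miR-107 from -0.18 to 0.08, so neither had a settled direction there. All 8 epithelial markers were above 0 at 6 hr, with a median of 0.12, as were 5 of 6 leukocyte miRNAs, with a median of 0.17. The bright median at 6 hr was 0.07, with 37 of 104 bright miRNAs below 0. The part of these cell types in the ratio of miR-107 was not tested. The comparison at 0 hr is the one between arrays that share a code in their deposited names. The genotype term of the limma fit was 0.01 for miR-103 (adjusted p = 0.841) and 0.05 for miR-107 (adjusted p = 0.788). In that limma fit 0 of 797 miRNAs (0%) passed an adjusted p of 0.05 and 38 (4.77%) an unadjusted p of 0.05. For miR-107* only a bound could be formed at 6 hr, set against the dimmest detected probe of the irradiated Tlr3-/- array. It put irradiated Tlr3+/+ intestine 1.02-fold higher, or 0.035 on the log2 scale (measured log2 intensities of 5.67 in Tlr3-/- and 5.73 in Tlr3+/+ intestine). That lies below the technical SD of a ratio, 0.148, and the raw intensities were 27.7 and 27.9, so no genotype difference is shown. At 0 hr the same bound fell under 1 and gives no fold.

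Whether the response depended on TLR3 was read by subtracting the irradiation ratio of Tlr3+/+ intestine from that of Tlr3-/- intestine. This difference was -0.03 for miR-103 and 0.12 for miR-107. Both were below the technical SD of such a difference, 0.209, and the median of the 100 miRNAs bright on all 4 arrays was 0.09. In the 6 other processings the difference ran from -0.03 to 0.16 for miR-103 and from 0.12 to 0.28 for miR-107. The highest value of each came under spike scaling, where miR-107 exceeded that SD and the bright median was 0.21. The sign for miR-103 was thus not settled. Of 573 miRNAs detected on all 4 arrays, 0% had a difference at or above 1 and 0.524% one at or below -1, with neither miR-103 nor miR-107 among them. No test of the difference was possible with 1 array per group.

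The near-identical pair was then compared for parallel change. The change of miR-103 minus that of miR-107 was -0.05 for irradiation in Tlr3-/- intestine and 0.10 for irradiation in Tlr3+/+ intestine. For genotype it was -0.11 at 6 hr and 0.04 at 0 hr. The largest of these was 0.527 times the technical SD expected for 4 spots, so no unequal change of the pair was detectable. The array that stood apart was irradiated Tlr3+/+ intestine, on which miR-107 was lower relative to miR-103 than on the other 3 arrays. In all 6 other processings the sign of each of these 4 values was the same, with sizes from 0.01 to 0.13. This is no replication, because every processing starts from the same spots. Median and spike scaling give identical values by construction.

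How close the pair ran was set beside the other bright miRNAs. The distance between profiles was the root mean square difference over the 4 arrays of log2 intensities centred on each miRNA's own mean. Between miR-103 and miR-107 it was 0.043, against a median of 0.129 between miR-103 and the 99 other miRNAs bright on all arrays. Even so, 9 of them ran closer to miR-103 than miR-107 did, and 11 ran closer to miR-107 than miR-103 did. Distances this small lie below the technical SD of single spots, 0.105, so their order is not settled.

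The profiles nearest to miR-103 were those of the probe for miR-199a-3p and miR-199b (0.006), miR-378b (0.018), miR-7a (0.024), miR-378 (0.030) and miR-126-3p (0.035). Those nearest to miR-107 were miR-93 (0.016), miR-378 (0.019), let-7d (0.033), miR-223 (0.034) and miR-23a (0.034). miR-378 was on both lists. It read 233 in irradiated Tlr3-/- and 205 in irradiated Tlr3+/+ intestine, against 242 in non-treated Tlr3-/- and 228 in non-treated Tlr3+/+ intestine. Its irradiation ratios were -0.18 in Tlr3-/- and -0.23 in Tlr3+/+ intestine, between those of miR-103 and miR-107. These miRNAs were picked as nearest on the same normalized values, so their lower level on both irradiated arrays follows from the choice. Raw intensities of miR-126-3p were slightly higher on the irradiated Tlr3-/- and Tlr3+/+ arrays, at 331 and 332. They were 327 and 329 on the non-treated ones.

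**Figure D3:**
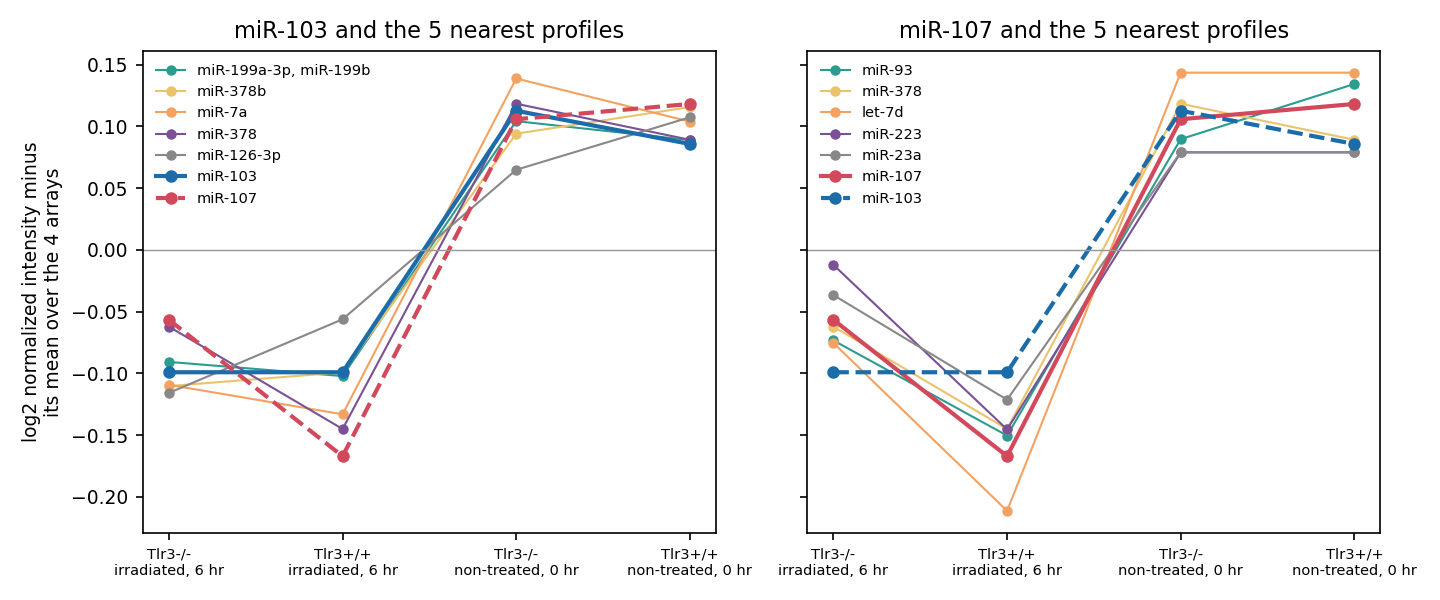
Log2 normalized intensity minus its mean over the 4 arrays for miR-103 (left) and miR-107 (right), each with its 5 nearest profiles and with the other member dashed. The nearest profiles were picked on these values, so their shared lower level on both irradiated arrays follows from the choice. The lowest point of miR-107 is irradiated Tlr3+/+ intestine.

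miR-103 and miR-107 belong to the larger group named for miR-15 and miR-107, whose members carry the letters AGCAGC near the 5′ end and are known for restraining the cell cycle. The letters begin at base 1 in miR-103 and miR-107 and at base 2 in the other group members, which shifts the seed by 1 base, as these examples show with the seed in capitals.
miR-107: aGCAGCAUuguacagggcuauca
miR-15a: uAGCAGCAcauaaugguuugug
miR-15b: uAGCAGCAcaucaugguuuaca
miR-16: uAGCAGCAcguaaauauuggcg
miR-497: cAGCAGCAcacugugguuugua
Read on the miRNA strand only, the letters AGCAGC start at base 1 or 2 in 13 of 1679 mature mouse miRNA names in the table (0.774%). The 7 other group members on the array were miR-15a, miR-15b, miR-16, miR-195, miR-322, miR-497 and miR-503, and 0 of the 7 passed an adjusted p of 0.05 for irradiation in the limma fit, the lowest adjusted p being 0.518.

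Bright members of this group had another order of raw intensities than miR-103 and miR-107. miR-16, which is known to repress cyclins, read 516 in irradiated Tlr3-/- and 414 in irradiated Tlr3+/+ intestine, against 448 in non-treated Tlr3-/- and 460 in non-treated Tlr3+/+ intestine. miR-15a read 208 and 153, against 188 and 182, and miR-15b read 189 and 143, against 163 and 166, in the same order. Raw intensities of all 3 were thus highest on the irradiated Tlr3-/- array and lowest on the irradiated Tlr3+/+ array. miR-497 was also lowest on the latter, at 81.4, but highest on the non-treated Tlr3+/+ array, at 91.1. After normalization miR-16 and miR-15a had the same order of levels over the arrays as miR-107. The log2 irradiation ratio in Tlr3-/- less that in Tlr3+/+ intestine was 0.44 for miR-16, 0.33 for miR-15a and 0.37 for miR-15b. It was 0.29 for miR-497, against -0.03 for miR-103 and 0.12 for miR-107. Whether these values differ between miRNAs was not tested.

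The other measured members were counted by comparison. In Tlr3-/- intestine 4 of 6 group members had irradiation ratios below 0, with a median of -0.03 (-0.00 over all 625 compared miRNAs). Among 102 bright miRNAs there, 56 were below 0, with a median of -0.07. In Tlr3+/+ intestine 77 of 104 bright miRNAs were below 0, with a median of -0.20 (-0.01 over all 680). Of the group members it was 5 of 6, with a median of -0.28. The exception was miR-195, whose ratio of 0.99 came from raw intensities of 111 at 6 hr and 39.6 at 0 hr. The red cell miRNA miR-451 was also lowest on that non-treated Tlr3+/+ array, with raw intensities of 82.7 and 129 in irradiated Tlr3-/- and Tlr3+/+ intestine, against 171 and 42.3 in non-treated Tlr3-/- and Tlr3+/+ intestine. miR-144, the other red cell miRNA, stayed near background, at 25.2 to 29.5. The part of red cells in the value of miR-195 was not tested. At 6 hr all 6 compared group members were above 0 in Tlr3-/- over Tlr3+/+ intestine, from 0.11 for miR-322 to 0.29 for miR-15a. miR-103 was at 0.00, miR-107 at 0.11 and the median of bright miRNAs at 0.07, with 37 of 104 of these below 0. miR-503 passed the threshold on neither irradiated array. By distance of profiles, miR-15a, miR-15b, miR-16 and miR-497 ranked 32 to 53 of 99 from miR-103 and 24 to 37 of 99 from miR-107.

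**Figure D4:**
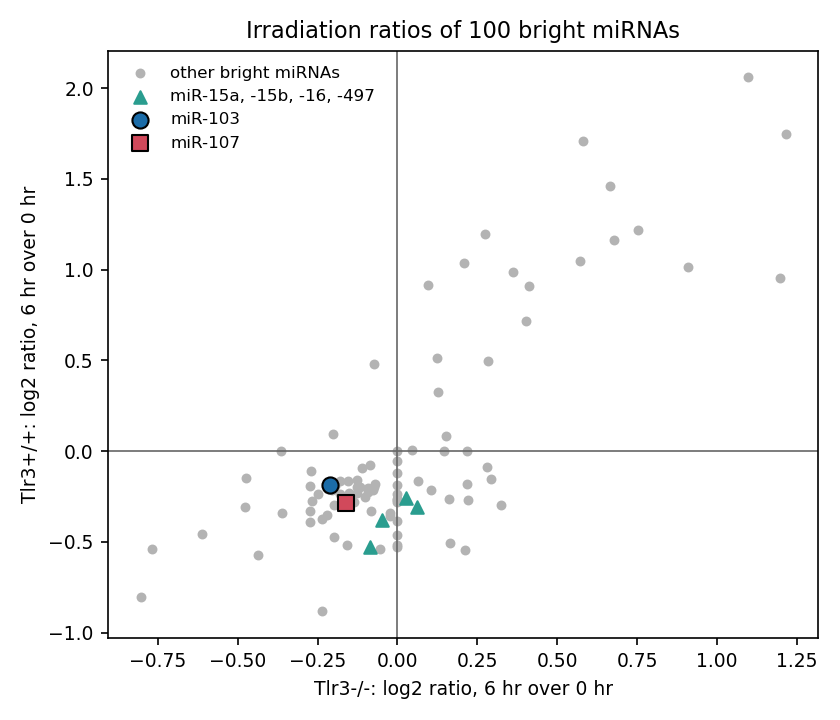
Log2 irradiation ratios (6 hr over 0 hr) in Tlr3-/- (x axis) and Tlr3+/+ intestine (y axis) of the 100 miRNAs bright on all 4 arrays, 1 point per miRNA. miR-103 (-0.21 and -0.18) and miR-107 (-0.16 and -0.29) lie below 0 on both axes, while miR-15a, miR-15b, miR-16 and miR-497 lie near 0 on the x axis and below 0 on the y axis.

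Because miR-107 is p53-linked, 13 other miRNAs linked to p53 were set beside it. Of these, miR-15a and miR-16 are also members of the group above, miR-192, miR-194, miR-215 and miR-200c are epithelial markers, and miR-143 and miR-145 are smooth muscle markers. In the limma fit 0 of the 13 passed an adjusted p of 0.05 for irradiation, the lowest being 0.131 for miR-143. In Tlr3-/- intestine 7 of 11 compared members were below 0, with a median of -0.00, and in Tlr3+/+ intestine 9 of 12, with a median of -0.19. Over all compared miRNAs 317 of 625 and 389 of 680 were below 0. Among bright miRNAs it was 56 of 102, with a median of -0.07, and 77 of 104, with a median of -0.20. The values of this list in Tlr3+/+ intestine were thus near those of bright miRNAs in general. miR-34a, a direct target of p53, read 45.2 in irradiated Tlr3-/- and 34.7 in irradiated Tlr3+/+ intestine, against 35.1 in non-treated Tlr3-/- and 34.2 in non-treated Tlr3+/+ intestine. miR-34a was dim, at 1.33 to 1.55 times the threshold, so the offset shrinks its ratios more than those of the bright miR-107. Its log2 irradiation ratio was 0.13 in Tlr3-/- and -0.04 in Tlr3+/+ intestine, against -0.16 and -0.29 for miR-107. With an offset of 16 these were 0.28 and -0.10, against -0.18 and -0.33. In the authors' values they were 0.65 and -0.18, against -0.25 and -0.45. miR-107 was therefore not higher 6 hr after irradiation in either genotype, except under spike scaling in Tlr3-/- intestine.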

How the data were processed

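Total RNA of small intestine was labelled with Hy5, per the labels' protocols, and hybridised in 1 colour. The authors deposited 3 intensity columns per array, per the file headers: raw, background-subtracted and globally normalized. Values here started from the raw intensity of 3136 spots: normexp background correction with 1818 blank spots as negative controls and an offset of 50, then quantile normalization over 1135 miRNA probes and log2 (limma 3.58.1, R 4.3.3). Blank means and SDs left out 5% at each end. Each miRNA had 1 probe. Ratios of 2 arrays had no test. The limma fit had terms for irradiation and genotype, eBayes and Benjamini-Hochberg adjustment over 797 mouse miRNAs detected on at least 2 arrays. A run on simulated arrays required only that the mean of planted changes was recovered, and gives no error rate for these data. Named miRNAs are the members, the 5 nearest profiles of each and the listed groups. Members and lists were chosen with earlier results of these data known. Precision is limited by the number of arrays. Alternatives were median, cyclic loess and spike scaling, the authors' normalized values, no background correction, an offset of 16 and other detection filters.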

Additional observations from a re-analysis of the deposited data

Results flagged for a closer look

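The genotype ratio of miR-107, Tlr3-/- over Tlr3+/+, had opposite signs at the 2 times: 0.11 at 6 hr and -0.012 at 0 hr on the log2 scale. Each time has 1 array per genotype, and the difference between the times was not tested. Both values lie within the technical SD of a ratio, 0.148, and under median scaling both were above 0, at 0.21 and 0.08.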

How the results depend on the processing

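Under spike scaling, in Tlr3-/- intestine the log2 irradiation ratio became 0.0506 for miR-103 and 0.0630 for miR-107, and the genotype ratio at 0 hr -0.16 and -0.18. The authors' values gave miR-107 in Tlr3+/+ intestine -0.45 and the dim miR-107* 1.13. The averaged genotype term of miR-103 changed sign to -0.0303 under cyclic loess, -0.0789 under spike scaling and -0.0620 in the authors' values, and that of miR-107 to -0.0416 and -0.0130 in the last pair; no member passed an adjusted p of 0.05 in any limma fit run. For irradiation the limma count was 1 under median scaling, 1 under cyclic loess and 35 under spike scaling, against 0, and for genotype 3 under spike scaling, against 0. Of 150 alternative values, 135 held by the rule for their kind: a ratio within the technical SD of that quantity, a fitted term with its sign and its side of the threshold, or a limma count within 1.5 times. Spike scaling moved the median of all miRNAs to 0.15 for irradiation in Tlr3-/- intestine and to -0.25 for genotype at 0 hr, and the authors' values to -0.15 for irradiation in Tlr3+/+ intestine and -0.17 for genotype at 0 hr. Counts of all miRNAs at 2-fold were higher in the authors' values, which do not damp dim probes: 18 higher and 20 lower in Tlr3-/- and 48 and 25 in Tlr3+/+ after irradiation, 14 and 29 between genotypes at 6 hr, 7 and 18 at 0 hr, and 32 and 33 for the difference, against 3 and 1, 12 and 0, 0 and 0, 2 and 0, and 0 and 3. In Tlr3-/- intestine median scaling gave 5 higher, spike scaling 7 higher and 0 lower, no background correction 5 and 2, an offset of 16 gave 5 and 3, and 3 times the threshold 0 lower. For the difference an offset of 16 gave 2 and 7, spike scaling and 3 times the threshold 1 lower each, and no background correction 1 higher. In Tlr3+/+ intestine no background correction and an offset of 16 gave 1 lower each, and at 0 hr an offset of 16 gave 1 lower and 3 times the threshold 0 higher. No paired analysis was possible because each group had 1 array, and the code shared in the array names, taken as a possible slide, gave no value as a block because it coincides with irradiation. No replicate could be left out.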

Other observations

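Other miRNAs of introns in metabolic genes were also measured. miR-33 and miR-33*, from Srebf2, a regulator of cholesterol synthesis, and miR-378*, from Ppargc1b, were dim, with raw intensities of 27.5 to 32.5 over the 4 arrays. Of this list of 4, which also holds the brighter miR-378, 4 were below 0 after irradiation in Tlr3-/- intestine (median -0.07) and 3 in Tlr3+/+ intestine (median -0.05). Over all compared miRNAs 317 of 625 and 389 of 680 were below 0. In the limma fit 0 of the list passed an adjusted p of 0.05, the lowest being 0.222. Star strands of the miR-15 and miR-107 group were near background too: of the 7 found on the array, 5, 6, 3 and 5 were detected in irradiated Tlr3-/-, irradiated Tlr3+/+, non-treated Tlr3-/- and non-treated Tlr3+/+ intestine, with summed background-subtracted intensities of 15.1, 12.4, 9.70 and 13.7.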
